A study of Homo sapiens with 6 samples.

Results

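TEAD-flanking YAP5SA peaks are binding calls of a tagged, hyperactive YAP that lie close to a TEAD peak without touching one. They were chosen by position from 2 peak lists of chromatin immunoprecipitation with sequencing (ChIP-seq). A YAP5SA peak on chromosomes 1 to 22 was taken when it overlapped no TEAD peak but had a TEAD peak edge within 10 kb. Left out beforehand were peaks closer than 2 Mb to any region longer than 2.5 Mb in which neither the YAP, the TEAD nor the YAP5SA list had a peak. This gave 442 TEAD-flanking peaks among the 8823 YAP5SA peaks of the allowed genome and the 9616 of the whole YAP5SA list. The other 8381 allowed peaks fell into 499 that overlapped a TEAD peak and 7882 that lay over 10 kb from any, called distal here. Positions of YAP5SA and TEAD peaks made the choice within the allowed genome, which the positions of all 3 lists had set. The counts of the 3 classes and the distances to TEAD are therefore descriptions.

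YAP is a transcriptional co-activator at the end of the Hippo pathway. It has no DNA-binding domain of its own and is brought to chromatin mainly by the TEAD transcription factors, largely at enhancers away from promoters. LATS kinases phosphorylate YAP on serines, which holds it in the cytoplasm. In YAP5SA these serines are replaced by alanine, so the protein escapes that control. Enhancers in active regions often stand close together, and super-enhancers are dense groups of them, which the series' title names. The comparisons below ask in which respects a YAP5SA peak a few kb from a TEAD peak differs from one at TEAD and from one far away.

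All 6 libraries came from CCLP1, an established human bile duct cancer cell line, with 1 library per group. The 3 groups used were a ChIP against the tagged protein (Flag-Bio-YAP5SA), one with a TEAD antibody, which the design text calls TEAD1, and one with a YAP antibody. Flag-Bio denotes a Flag epitope and a tag that the ligase BirA can biotinylate. The BirA library, named in the design text as the control of the tagged protein, was not used here, nor were the IgG and input libraries. The values below therefore have no measured background. YAP5SA is an introduced protein in cells that the labels describe no further, and its amount relative to endogenous YAP is not given in the labels. With 1 library per group, intervals below cover counting error only, treat peaks as independent, and carry no replicate error. The depth of the 3 libraries is unknown.

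The question of how the members lie around TEAD was first asked of their density. TEAD-flanking peaks were about as dense as YAP5SA peaks elsewhere in the genome. The flanks, meaning all bases within 10 kb of a TEAD peak but outside one, made up 129 Mb. They held 3.43 YAP5SA peaks per Mb (95% Poisson interval 3.12 to 3.77). The 2490 Mb farther away held 3.17 per Mb (3.10 to 3.24). The ratio of flank to remaining genome was 1.08 (0.983 to 1.19). For the higher-scoring part of the YAP5SA list, from its median upwards, it was 1.16 (1.01 to 1.33). Put as shares, the flanks were 4.92% of the genome outside TEAD peaks and held 5.31% (4.84 to 5.81) of the YAP5SA peaks that overlapped no TEAD peak. The 499 overlapping peaks, by comparison, were spread over only 2.15 Mb of TEAD peak sequence.

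**Figure D1:**
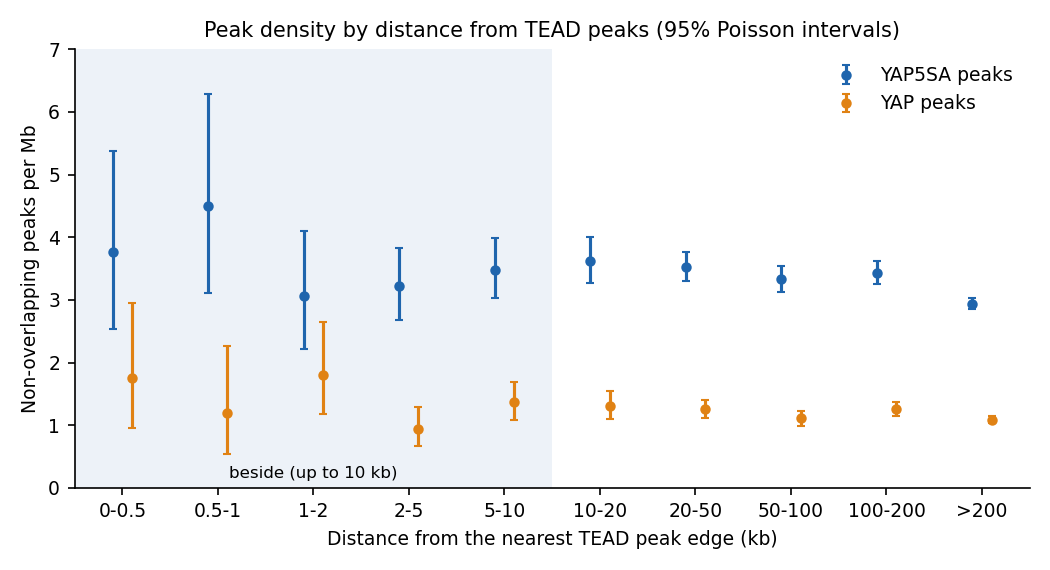
Peaks per Mb (y axis) in bands of distance from the nearest TEAD peak edge in kb (x axis), for YAP5SA peaks and YAP peaks that overlap no TEAD peak. Points are 1 list each with 95% Poisson intervals, and the shaded bands hold the TEAD-flanking peaks. YAP5SA density lies between 2.94 and 4.50 per Mb in all 10 bands.

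Within the flank there was no steep gradient towards TEAD. The 30 members within 0.5 kb gave 3.76 peaks per Mb (2.54 to 5.37) and the 34 members from 0.5 to 1 kb gave 4.50 (3.12 to 6.29). From 1 to 2 kb the value was 3.06 (2.22 to 4.11), from 2 to 5 kb it was 3.22 (2.68 to 3.83) and from 5 to 10 kb it was 3.48 (3.03 to 3.99). Just beyond the limit, from 10 to 20 kb, the density was 3.63 (3.27 to 4.01). Of the 10 bands plotted, the one over 200 kb from TEAD had the lowest density, at 2.94 per Mb (2.85 to 3.03). That band made up 1378 of the 2490 Mb that the flank was set against in the ratio above. The bands from 10 to 200 kb held 3.33 to 3.63 per Mb, close to the flank. In bands of 1 kb within the flank the values from 2 to 10 kb ran from 2.79 (1.97 to 3.83), at 2 to 3 kb, to 4.12 (3.07 to 5.41), at 5 to 6 kb. The intervals of the 5 flank bands overlapped one another.

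The endogenous YAP list, taken through the same rule, gave a like picture. It had 167 TEAD-flanking peaks at 1.30 per Mb (1.11 to 1.51), against 1.14 per Mb (1.10 to 1.19) for YAP peaks over 10 kb away. The ratio was 1.13 (0.964 to 1.33). Both lists thus had flank ratios whose intervals included 1.

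The gap from a member to its nearest TEAD peak ran from 5 bp to 9985 bp. Its median was 4591.5 bp and its quartiles were 2081 and 7411 bp. The TEAD peak lay at the lower coordinate for 212 members and at the higher one for 230, so neither side was preferred by more than counting error (47.96% on the lower side, 43.2 to 52.7). On both sides of the 10 kb limit the peaks were alike: 39 members with gaps of 9 to 10 kb had a median score of 60.9, and 39 excluded peaks at 10 to 11 kb had 58.7. At the inner limit, the 6 members within 100 bp of TEAD had a median score of 60.8. The 22 excluded peaks that overlapped TEAD by at most 100 bp had 56.05, against 82.25 for the 477 that overlapped by more. The 22 peaks were also narrower than the 477, with median widths of 158 and 262 bp, and met weaker TEAD peaks, with median TEAD scores of 71.3 and 418. Wider peaks can overlap by more bases, so the widths are not independent of this split.

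Each peak carries a score given by the authors, which runs from 50 to 3100 in the YAP5SA list and orders peaks within it. The members scored low, as did the allowed YAP5SA peaks as a whole. Scores of the members ran from 50.01 to 188.4, with a median of 57.3 (95% interval 56.35 to 58.3) and quartiles of 52.2 and 63.9. The median of all allowed YAP5SA peaks was 56.99 (56.7 to 57.3). Distal peaks had a median of 56.45 (56.35 to 56.7) and TEAD-overlapping peaks one of 78.8 (75.9 to 85.3). A score of 60 or over was held by 176 members (39.8%, 35.2 to 44.6), against 40.3% of all allowed YAP5SA peaks. For distal peaks the share was 38.1% and for TEAD-overlapping ones 76.4%. A score of 100 or over was held by 5 members (1.13%, 0.368 to 2.62), against 3.26% of all allowed peaks, 1.38% of distal ones and 34.9% of TEAD-overlapping ones. The 100 highest-scoring allowed peaks comprised 73 TEAD-overlapping, 25 distal and 2 TEAD-flanking peaks. Among all allowed peaks these classes made up 5.66%, 89.3% and 5.01%.

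**Figure D2:**
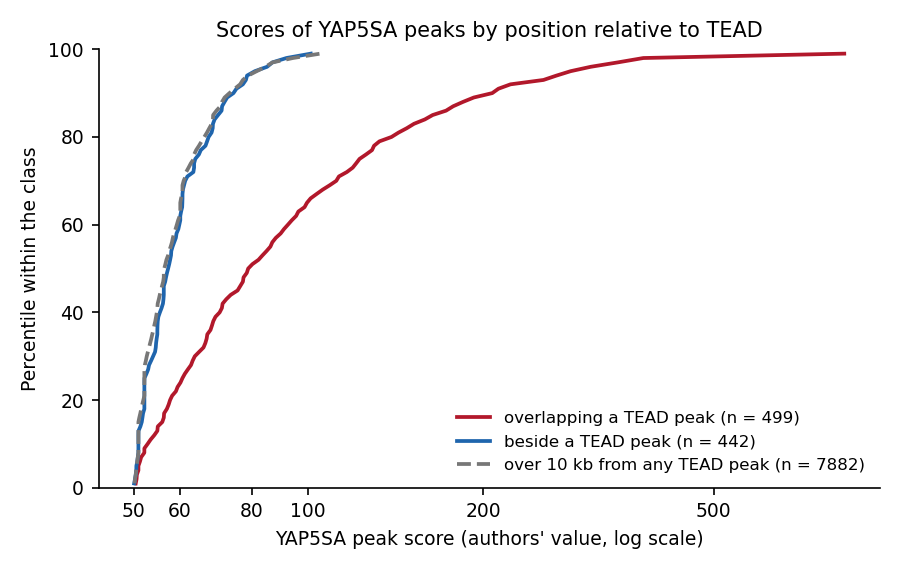
Percentile within a class (y axis) against the YAP5SA peak score (x axis, log scale) for TEAD-overlapping, TEAD-flanking and distal YAP5SA peaks. The flanking and distal curves run together, with medians of 57.3 and 56.45, while the overlapping curve lies to the right with a median of 78.8.

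The share of non-overlapping peaks that lay in the flank varied little with score. Of the 619 such peaks in the top 10 percent of scores, 35 were TEAD-flanking (5.65%, 3.97 to 7.78). Among the other 7705 the share was 5.28% (4.79 to 5.81). In the upper 50% of scores it was 5.67% (4.98 to 6.44) and in the lower 50% it was 4.97% (4.34 to 5.66), with overlapping intervals.

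Members had a median width of 172 bp (165 to 179) and a range of 77 to 544 bp. The median of all allowed YAP5SA peaks was 164 bp (163 to 166). The members' median was above the distal one of 162 bp (161 to 163) and below the 257 bp (246 to 268) of TEAD-overlapping peaks. Widths over 300 bp occurred in 30 members (6.79%, 4.63 to 9.55), against 5.28% of all allowed YAP5SA peaks. The share was 3.35% (2.96 to 3.77) for distal peaks and 34.5% for TEAD-overlapping ones. Part of this order went along with distance: distal peaks at 10 to 20 kb also had a median of 172 bp, and those over 200 kb away had 157 bp. Among peaks of like score the order was not constant. At scores of 50 to 55 the medians were 159 bp for members (149 to 168), 148 bp for distal peaks (147 to 149) and 151 bp for TEAD-overlapping peaks (145 to 168). At 55 to 60 they were 175.5, 162 and 166 bp, and at 60 to 70 they were 172.5, 175 and 196 bp, in the same order of classes. At 70 to 100 they were 204 bp (186 to 225), 195 bp (189 to 199) and 251 bp (239 to 265). The 5 members of 100 to 200 had a median of 301 bp, against 243.5 bp for distal and 319 bp for TEAD-overlapping peaks.

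Within the allowed genome, YAP peaks played no part in sorting YAP5SA peaks into the 3 classes. They had served only, with both other lists, to mark the long regions without peaks. TEAD-flanking peaks hardly coincided with endogenous YAP peaks as listed: 1 of 442 overlapped a YAP peak (0.226%, 95% Clopper-Pearson interval 0.00573 to 1.25), against 1.01% of all allowed YAP5SA peaks. Distal peaks gave 21 of 7882 (0.266%, 0.165 to 0.407). TEAD-overlapping peaks gave 67 of 499 (13.4%, 10.6 to 16.7). The interval of the members contains the distal value and lies wholly below that of the TEAD-overlapping peaks. With peaks over 1 kb removed from all lists, which turns YAP5SA peaks on wide TEAD peaks into flanking ones, 4 of 450 met YAP (0.889%, 0.243 to 2.26), and without chromosome 1 none of 394 did.

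Peaks of like score showed the same division. At scores of 50 to 60, 9 of 118 TEAD-overlapping peaks met a YAP peak (7.63%, 3.55 to 13.99). None of the 266 members in that range did, which allows a share of up to 1.13% by 3 counts of the total and 1.38% by the Clopper-Pearson limit. Distal peaks of that range gave 12 of 4882 (0.246%). At scores of 60 to 80 the counts were 14 of 136 TEAD-overlapping peaks (10.3%, 5.74 to 16.7), 1 of 153 members (0.654%, 0.0165 to 3.59) and 8 of 2574 distal peaks (0.311%). At scores of 80 to 200, where 19 of 193 TEAD-overlapping peaks met YAP (9.84%), 0 of 23 members did. That count allows a share of up to 13.0% by 3 counts and 14.8% by the Clopper-Pearson limit, so a difference there was not detectable with so few members.

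**Figure D3:**
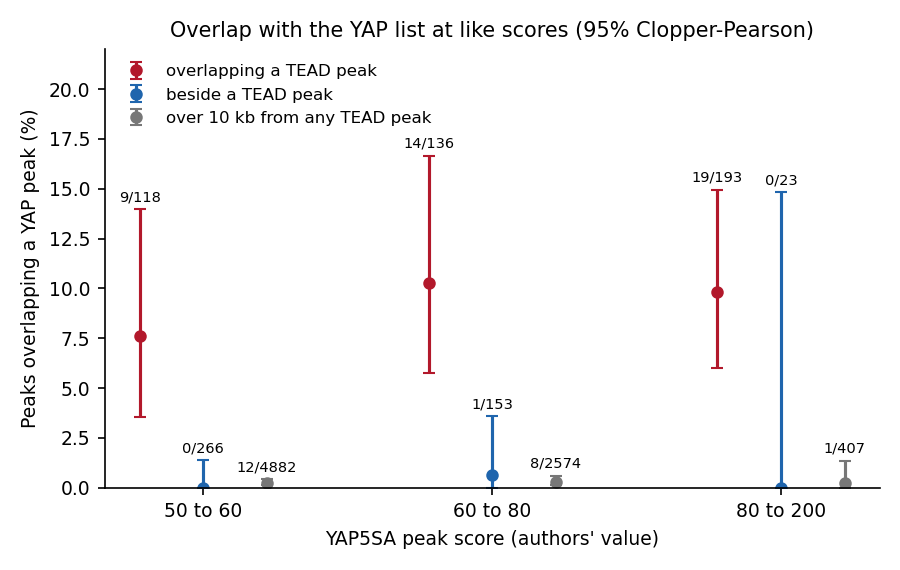
Share of YAP5SA peaks that overlap a YAP peak (y axis, percent) in 3 ranges of YAP5SA score (x axis), for TEAD-overlapping, TEAD-flanking and distal peaks, with 95% Clopper-Pearson intervals and counts above them. TEAD-overlapping peaks lie at 7.63% to 10.3% in every range, and 1 TEAD-flanking peak in all meets YAP.

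The single member that met YAP was chr1:206074088-206074371 in hg19, with a score of 60.65. Its nearest TEAD peak, chr1:206078578-206078727, lay 4206 bp away and was itself weak, with a TEAD score of 51.3. That TEAD peak had a second member on its other side, chr1:206083946-206084164, at a gap of 5218 bp and with a score of 52.0. The YAP peak thus lay at the flanking YAP5SA peak and not at the TEAD peak between the pair.

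A YAP peak lay within 10 kb of 18 members, the overlapping one included (4.07%, 2.43 to 6.36), against 3.66% of all allowed YAP5SA peaks. For distal peaks the share was 2.64% (2.30 to 3.02) and for TEAD-overlapping peaks 19.4% (16.1 to 23.2). The nearest TEAD peak carried a YAP peak for 6 of the 18 and carried none for the other 12. The members with a YAP peak closest after the first were a pair on chromosome 3, chr3:183457915-183458138 at 48 bp from it and chr3:183458654-183458870 at 787 bp. Both shared the TEAD peak chr3:183462600-183462765, which scored 62.65 and lay 4461 and 3729 bp away. Among the members whose TEAD neighbour did carry YAP were those beside 2 of the strongest TEAD neighbours. These were chr1:103714630-103714775, at 1045 bp from a TEAD peak scoring 1738.29, and chr20:36748227-36748423, at 1641 bp from one scoring 1738.2. Both TEAD peaks were also overlapped by another YAP5SA peak, and both members scored low, at 50.8 and 54.8.

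**Figure D4:**
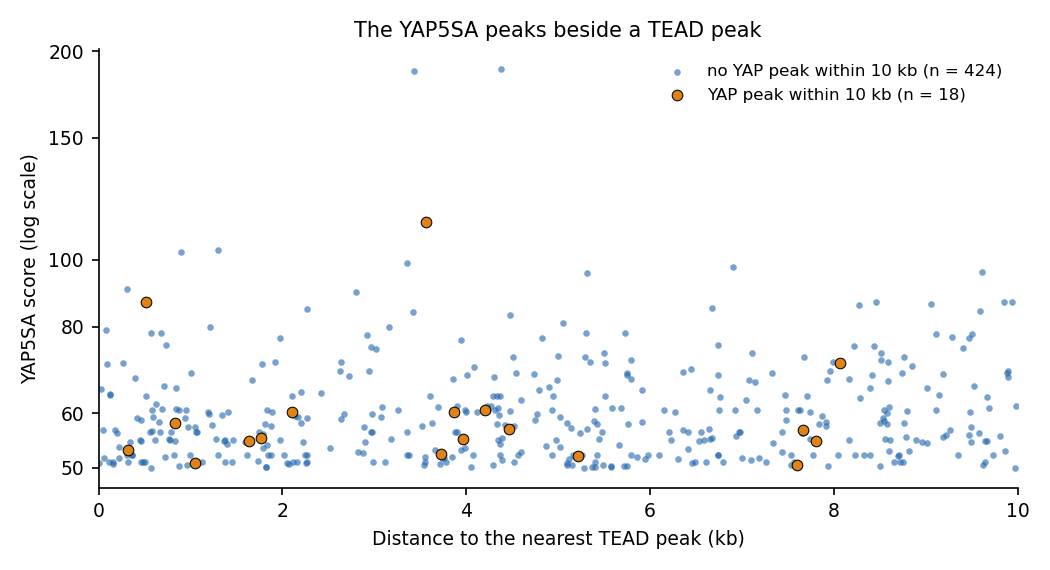
YAP5SA score (y axis, log scale) against distance to the nearest TEAD peak in kb (x axis) for the 442 TEAD-flanking peaks, each a point, with the 18 that have a YAP peak within 10 kb in orange. Scores of 50 to 64 hold most points at every distance, and only 5 points reach 100.

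Seen from the TEAD side, members were found beside TEAD peaks of every score range. A member lay within 10 kb of 549 of the 8489 allowed TEAD peaks (6.47%, 5.95 to 7.01). With the TEAD list cut into 10 equal parts by score, this share was 6.72% (5.13 to 8.62) in the highest part, lowest at 4.83% (3.49 to 6.49) in the fourth, and 7.77% (6.06 to 9.78) in the lowest part. Overlap ran otherwise: 33.4% (30.2 to 36.7) of the highest part was overlapped by a YAP5SA peak, 10.1% (8.18 to 12.4) of the next and 1.30% (0.649 to 2.31) of the lowest. The overlapped TEAD peaks were also wider, with a median of 407.5 bp against 209 bp for all allowed ones. Overlap at like TEAD width was not tested. TEAD peaks with a member within 10 kb had a median score of 73.9 (69.4 to 78.9) and those without had 76.25 (75.1 to 77.2). The 428 TEAD peaks that were the nearest one to a member had a median of 69.4 (66.55 to 73.9), below the 76.25 (75.1 to 76.97) of all allowed TEAD peaks. The 2 sets differed in clusters, meaning 3 or more TEAD peaks, each within 12500 bp of the next. Clusters held 14.95% of the 428 and 26.2% of all allowed TEAD peaks. TEAD peaks in clusters had a median score of 108.67, against 70.6 for those in none. Whether the 428 scored lower at like clustering was not tested. TEAD peaks overlapped by YAP5SA had a median of 375 (332 to 426).

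**Figure D5:**
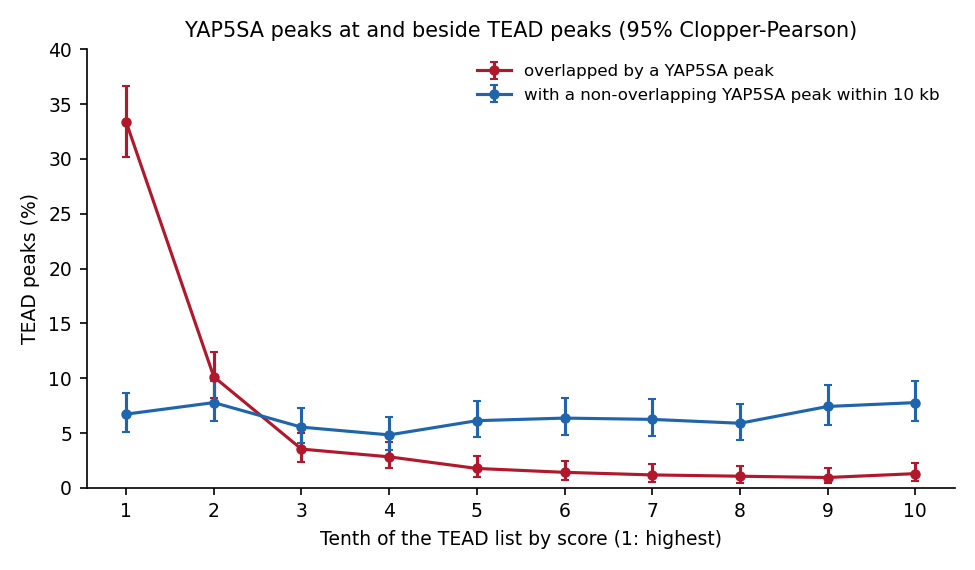
Share of TEAD peaks (y axis, percent) overlapped by a YAP5SA peak, and share with a TEAD-flanking YAP5SA peak within 10 kb, in 10 equal parts of the TEAD list by score (x axis, 1 highest), with 95% Clopper-Pearson intervals. The overlapped share goes from 33.4% to 1.30%, while the flanking share stays between 4.83% and 7.77%.

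The innermost flank was also measured apart for strong TEAD peaks. Around the 1697 highest-scoring TEAD peaks, those of 166.86 and over, 19 non-overlapping YAP5SA peaks within 1 kb gave 6.04 per Mb (3.64 to 9.43). From 1 to 10 kb around them the density was 3.42 (2.72 to 4.24). Around the other TEAD peaks the values were 3.68 (2.70 to 4.89) and 3.31 (2.96 to 3.69). These intervals overlap, and the 19 peaks are few, so no difference between strong and other TEAD peaks can be read from them. The interval within 1 kb of the strong ones lay above the 3.17 per Mb (3.10 to 3.24) of the genome over 10 kb from TEAD. It overlapped that of the band from 10 to 20 kb, which held 3.63 per Mb (3.27 to 4.01). The rule used the positions of both lists, so these densities are descriptions. Around all allowed TEAD peaks the density within 1 kb was 4.12 (3.17 to 5.26), an interval that overlaps the distal one. The 30 members with a gap up to 0.5 kb had a nearest TEAD peak with a median score of 134, against 65.4 for the 207 members at 5 to 10 kb. In between, the medians were 63.3 at 0.5 to 1 kb, 74.5 at 1 to 2 kb and 78.8 at 2 to 5 kb. The TEAD score thus had no steady order by distance. The members up to 0.5 kb and those at 5 to 10 kb had median YAP5SA scores of 54.6 (52.2 to 58.7) and 57.3 (56.2 to 59.2).

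Nearest TEAD peaks numbered 428, of which 414 had 1 member and 14 had 2, so members rarely shared a neighbour. After the chromosome 11 site described below with the runs, the highest-scoring TEAD peak with 2 members was chr6:26253467-26253779, which scored 331.56 and had a member on each side, at 5788 and 571 bp. The next were chr16:4784195-4784471, chr11:102656817-102657083 and chr11:9836879-9837091, with TEAD scores of 116.43, 78.9 and 75.9, each with both members on its higher-coordinate side. None of these 4 met a YAP or YAP5SA peak. Of these TEAD peaks, 25 were overlapped by another YAP5SA peak (5.84%, 3.82 to 8.50), against 5.75% of all allowed TEAD peaks, and 5 by a YAP peak (1.17%, 0.380 to 2.71), against 2.05%. The 428 held fewer clustered TEAD peaks, which carried YAP5SA at 6.87% and YAP at 3.50%, against 5.35% and 1.53% for unclustered ones. The 549 TEAD peaks with a member within 10 kb gave 6.56% (4.63 to 8.96) for YAP5SA and 1.64% (0.752 to 3.09) for YAP. TEAD peaks with no member within 10 kb gave 5.69% and 2.08%. For both the 428 and the 549, the intervals contained the shares they were set against. A difference at like clustering was not tested.

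TEAD peaks often stand in groups, and the flanks of groups were not richer in members. Of the members, 75 lay within 10 kb of 2 or more TEAD peaks (16.97%, 13.6 to 20.8), while 18.5% of the flank sequence did. Members within 10 kb of exactly 1 TEAD peak had a density of 3.50 per Mb (3.15 to 3.88). With 2 it was 2.81 (2.03 to 3.79) and with 3 or more it was 3.73 (2.55 to 5.27). TEAD peaks on both sides within 10 kb were found for 37 members. Clusters of 3 or more TEAD peaks, each within 12500 bp of the next, held 159 of the 549 TEAD peaks that had a member within 10 kb (29.0%), against 26.2% of all allowed TEAD peaks.

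Members had other YAP5SA peaks nearby at a higher share than distal peaks. Another YAP5SA peak lay within 12500 bp of 69 members (15.6%, 12.4 to 19.3), against 10.6% of all allowed YAP5SA peaks, 9.43% (8.79 to 10.1) of distal ones and 24.6% (20.9 to 28.7) of TEAD-overlapping ones. For 36 of the members these neighbours included a TEAD-overlapping YAP5SA peak, which distal peaks can hardly have because of how they are defined. A neighbour that did not overlap TEAD was found for 36 members (8.14%, 5.77 to 11.1) and for 9.39% (8.75 to 10.1) of distal peaks. With neighbours at TEAD set aside, the interval of the members thus contained the distal share.

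Runs of 3 or more YAP5SA peaks, each within 12500 bp of the next, held 9 members (2.04%, 0.935 to 3.83), against 1.28% of all allowed YAP5SA peaks. The share was 0.837% (0.648 to 1.06) for distal and 7.62% (5.45 to 10.3) for TEAD-overlapping peaks. The 9 members lay in 8 runs, of which 7 also held a TEAD-overlapping YAP5SA peak. The run on chromosome 11 from 3674940 to 3684085 had 2 members, at chr11:3683795-3683921 and chr11:3683934-3684085. They scored 56.8 and 54.7 and lay 7665 and 7804 bp from the TEAD peak chr11:3674878-3676129, which scored 1196 and was overlapped by both YAP5SA and YAP. The run on chromosome 21 from 17923630 to 17946175 held 1 member, chr21:17945108-17945361, with a score of 86.7 and a gap of 512 bp to a TEAD peak scoring 1337. Its other 4 YAP5SA peaks overlapped TEAD peaks. The run on chromosome 22 from 30024768 to 30050724 stood apart: its 4 other YAP5SA peaks were distal, it contained neither a TEAD nor a YAP peak, and its scores reached 367.64. Its only member, chr22:30024768-30024878, scored 60.7 and lay 6149 bp from the TEAD peak chr22:30017655-30018618. Members at chr12:50797669-50797859 and chr2:225961183-225961387, with scores of 56.35 and 63.55, belonged to runs of 3 YAP5SA peaks that included 1 and 2 TEAD-overlapping ones.

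The 2 strongest members stood clear of the rest. The first, chr8:25031846-25032087, had a score of 188.4 and a width of 242 bp. It lay 4375 bp from the TEAD peak chr8:25036463-25036767, which scored 169.61 and met no YAP5SA peak. The second, chr3:144079936-144080298, had a score of 187.21 and lay 3426 bp from the TEAD peak chr3:144083725-144083914. That TEAD peak scored 113.16 and was overlapped by another YAP5SA peak. They held ranks 84 and 86 in the whole YAP5SA list, and the nearest YAP peaks were 42.0 kb and 837 kb away.

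The other 8 of the 10 highest-scoring members scored 90.8 to 113.44. The third, chr5:58408527-58408888, was the only one of the 10 with a YAP peak within 10 kb, at 7.81 kb. It scored 113.44, and its TEAD neighbour at 3559 bp scored 122.75. The fourth, chr18:3657642-3657939, scored 103.35 and lay 1300 bp from TEAD. The fifth, chr1:172868084-172868384, scored 102.51 and lay 897 bp from a TEAD peak that another YAP5SA peak overlapped. Members at chr12:65978257-65978445, chr7:83844077-83844491, chr5:16775776-16776255 and chr6:15732867-15732956 scored from 95.55 to 98.83 and had TEAD neighbours scoring from 51.0 to 64.7. The tenth, chr12:64235941-64236179, scored 90.8 and was the closest of them to TEAD, at 304 bp. The gaps of the 10 thus spread from 304 bp to 9612 bp, across nearly the whole flank.

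The 5 members closest to TEAD scored from 50.8 to 79.1, and 2 of them were above the upper quartile of all members. The peak chr2:64054685-64054830 ended 5 bp short of a TEAD peak scoring 561.54, which another YAP5SA peak overlapped, and itself scored 50.8. The peak chr18:3247707-3247859 lay 27 bp from a TEAD peak scoring 615.4 that met no YAP5SA peak, and scored 64.9. The other 3 lay 43 bp (chr6:139860428-139860780), 60 bp (chr2:52692235-52692356) and 85 bp (chr10:96140867-96141193) from TEAD, with scores of 56.7, 51.7 and 79.1. These gaps are shorter than the sonicated fragments of about 250 bp, so the fragments behind such a pair of peaks can overlap although the peaks do not. The 5 members with the largest gaps, from 9889 to 9985 bp, scored 50.03 to 86.7, a range that overlaps that of the closest ones.

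Every allowed chromosome had members, from 5 on chromosome 16 to 48 on chromosome 1. The share of non-overlapping YAP5SA peaks that were TEAD-flanking tended to be higher where TEAD flanks took up more of the chromosome. Pearson's r was 0.58 and Spearman's rho 0.59 over the 22 chromosomes. Both are descriptions, since chromosomes share the libraries and both shares rest on the TEAD positions of the rule. In 19 of 22 the interval of the first share contained the flank share, though intervals are wide where members are few. Chromosomes 6 and 9 lay above it, with 6.88% (4.92 to 9.33) against a flank share of 4.68% and 6.99% (4.73 to 9.88) against 4.28%. Chromosome 19 lay below it, with 4.97% (2.17 to 9.56) against 9.87%.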

How the data were processed

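For CCLP1 cells, 3 ChIP-seq peak lists (YAP, TEAD, YAP5SA) were used, 1 per library. Per the labels' protocols, fixation took 10 min with 1% formaldehyde, and sonication gave fragments near 250 bp. Alignment was to hg19 and used Bowtie2, per the submitters' processing notes. The deposited lists give each peak's chromosome, start, end, a name with the prefix MACS, and a score. This deposited score is the authors' own and was used only within its list. The version, threshold and control library of the peak caller were not given in the sources used here. A control shared by the lists could add to their overlap. Depth is unknown.

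Intervals were read as half-open from 0 and are printed from 1 in hg19. A start below 0, found in 1 TEAD peak, was set to 0. The peak-free stretches numbered 21, 18 of them on chromosomes 1 to 22, and were taken between peaks. The rule removed 548 YAP5SA peaks on other sequences and 245 near stretches. Overlap meant at least 1 bp. The genome ran from the first to the last base covered by any list on each chromosome, less the excluded stretches (2621 Mb). Poisson and Clopper-Pearson 95% intervals were exact, and intervals of medians came from order statistics. No significance test was run, since each group has 1 library and the members were chosen by position. The members and the descriptions were chosen with earlier results of these data known. Regions named are the 10 highest-scoring members, the 5 smallest and 5 largest gaps, members at a YAP peak, and members beside TEAD peaks or in runs with most members. Members with a YAP peak within 10 kb were picked after their values were seen. The gene table at hand is of GRCh38.p14, so genes, promoters, exons, motifs and sequences were not used here. On simulated lists of 9000 evenly spaced TEAD peaks and 600 YAP5SA peaks, all 200 planted members were recovered. This checks only the sorting by distance, without grouped TEAD peaks. On the real lists bedtools 2.31.1 gave the same counts of 499 overlapping and 941 overlapping or flanking peaks. Python 3.11.15, numpy 2.4.6, pandas 2.3.3, scipy 1.17.1 and matplotlib 3.10.9 were used.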

Additional observations from a re-analysis of the deposited data

How the results depend on the processing

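Of 93 values recomputed for 11 results under 9 settings, 74 stayed within the 95% interval of the reported value and 19 did not. The ratio of flank to distal density stayed within it in all 8 settings that gave one, from 1.03 with the higher-scoring part of the TEAD list to 1.16 (1.01 to 1.33) with that of the YAP5SA list. Its lower bound also passed 1 with a limit of 20 kb (1.12, 1.04 to 1.20) and without peaks over 1 kb (1.10, 1.003 to 1.22). Without peaks over 1 kb the overlap with YAP was 4 of 450 members (0.889%), since wide TEAD peaks were dropped and the peaks on them became members. It was 0% without chromosome 1 (0 of 394) and 0% with the higher-scoring part of the TEAD list (0 of 210). With a limit of 5 kb the share of YAP5SA peaks in the flank was 2.66%, the median gap 2166 bp, the median score of TEAD neighbours 76.4 and the share near 2 or more TEAD peaks 25.96%. With 20 kb the flank share was 9.34% and the gap 9240.5 bp. The share near 2 or more TEAD peaks was then 9.10% and the share with another YAP5SA peak 12.3%. At every setting, near 2 or more TEAD peaks meant within 10 kb of them. With the higher-scoring part of the TEAD list the flank share was 2.38%, the gap 4227.5 bp, the neighbours' median score 151, the share near 2 or more TEAD peaks 23.8%, the share with another YAP5SA peak 22.9% and the share whose TEAD neighbour met another YAP5SA peak 11.9%. With the higher-scoring part of the YAP5SA list the median score was 63.7, the width 186 bp and the share with another YAP5SA peak 9.25%. Most of these moves follow from the settings themselves, which change the members or the peaks counted. Counting stretches before the first peak of a chromosome, chosen after seeing the data, left 441 members. Alternatives on motifs, exons and promoters were not run, for want of hg19 sequence and annotation in the work. No paired analysis was possible because no group has a second library, which also means that no replicate could be left out.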
